A study of Mus musculus with 3 samples.

Results

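Head-to-head promoters are short stretches of DNA from which neighbouring genes are transcribed away from each other. They were examined here in the open chromatin of mouse hair follicle stem cells (HFSCs). A head-to-head pair was defined as 2 neighbouring protein-coding genes on opposite strands of chromosomes 1 to 19, with their outer transcription starts at most 1000 bases apart. The region of a pair ran from 500 bases outside one start to 500 bases outside the other. In the GRCm38 annotation 742 pairs met this rule. They hold 1484 of the 20720 protein-coding genes on these chromosomes (7.16%), and they were compared with the promoters of 19216 other protein-coding genes, each taken as 500 bases to either side of its outer start. The rule used gene positions only and no measured value.

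HFSCs were sorted from the dorsal skin of untreated 6-month-old mice in telogen, when follicles rest. Their open chromatin was profiled by Omni-ATAC-seq, where a transposase inserts adapters into DNA free of nucleosomes. Sorting took CD34+CD49f+Sca-1- cells. The study compared 1 Msx2-WT library, from wild-type C57BL/6J mice at the matching stage of the cycle, with 2 Msx2-KO libraries from mice with a homozygous germline knockout of Msx2, a homeodomain transcription factor. The knockout was made by a neo cassette inserted upstream of exon 2, so every cell of these mice carried it, the niche included. Whether cells of several animals were pooled is not given in the sources used here. The batch label of the Msx2-WT library is another date than that of the Msx2-KO libraries, so batch and genotype cannot be told apart. No test between genotypes could be made with a single wild-type library, and the only spread between replicates was that of the Msx2-KO libraries. Peak names inside the lists of both knockout libraries contain "cKO", although the labels give a knockout. In the list of Msx2-KO replicate 1 these names also hold a different library number from the labelled one. The libraries are called here by their labels, as WT for Msx2-WT and as KO1 and KO2 for Msx2-KO replicates 1 and 2.

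In head-to-head promoters a single stretch of open DNA can load RNA polymerase in both directions. Such promoters usually lack a TATA box, are rich in G+C and CpG, and are known from housekeeping genes, histones and genes of DNA repair, which every dividing or metabolically active cell needs. Joint use of 1 open stretch does not mean that both genes are transcribed at the same level, and accessibility does not measure transcription.

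The lists differed in depth. The commonest background, the number of tags expected by chance in the window around a summit, was 1.74 in WT, 0.476 in KO1 and 0.790 in KO2, and 33092, 18917 and 40042 summits on chromosomes 1 to 19 passed a q-value of 0.01. A summit is the position of highest signal within a peak. The weakest of these summits held 9 tags in WT, 5 in KO1 and 6 in KO2. KO1 had the lowest background and the fewest summits, and is the shallowest library. Open chromatin was found within 1500 bases of a start for 8, 7 and 9 of 10 HFSC markers in WT, KO1 and KO2, respectively, and for 0 of 5 leukocyte markers in each library. It was also found for 3, 0 and 0 of 5 markers of the interfollicular epidermis (Ly6a, Krt10 and Ivl, in WT only) and 2, 2 and 2 of 5 of melanocytes (Dct and Pmel). For fibroblasts the counts were 2, 1 and 3 of 5, and for the endothelium 0, 1 and 2 of 5. The part of such cells in the values below was not tested. The promoter of Msx2 itself was open in all 3 libraries, with 15, 9 and 16 tags. A cassette inserted upstream of exon 2 need not change the tags there, so this does not check the labels.

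The DNA between the starts is shown for 8 well-known pairs, because it is the stretch that both genes share. The pairs were taken by a rule on order and distance, given with the processing. They run from open in every library to a summit in 1 library alone. No pair closed in all libraries, or open in KO1 and KO2 only, is among them. Sequences are from the RefSeq GRCm38.p6 assembly, 5′ to 3′ on the plus strand, and hold only bases outside both annotated genes. Capitals mark matches, on either strand, to the motifs listed further below.
Psmb1-Tbp, chr17:15499752-15499887: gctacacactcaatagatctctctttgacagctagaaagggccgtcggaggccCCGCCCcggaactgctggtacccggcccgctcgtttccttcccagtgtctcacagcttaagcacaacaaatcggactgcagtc
Aimp2-Pms2, chr5:143909848-143909963: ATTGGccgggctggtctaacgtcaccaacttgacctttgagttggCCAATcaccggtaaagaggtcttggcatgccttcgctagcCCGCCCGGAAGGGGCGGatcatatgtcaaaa
Toe1-Mutyh, chr4:116807641-116807722: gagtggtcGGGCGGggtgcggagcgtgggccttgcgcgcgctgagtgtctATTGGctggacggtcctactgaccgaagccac
Brca1-Nbr1, chr11:101551956-101552148: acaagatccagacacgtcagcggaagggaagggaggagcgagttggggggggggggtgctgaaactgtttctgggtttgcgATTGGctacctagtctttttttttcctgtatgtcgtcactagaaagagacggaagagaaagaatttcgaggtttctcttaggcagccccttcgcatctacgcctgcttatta
Ddx49-Cope, chr8:70302490-70302517: ctacgtcacgtccaccccggcgcagtcc
Lrrc46-Mrpl10, chr11:97041408-97041559: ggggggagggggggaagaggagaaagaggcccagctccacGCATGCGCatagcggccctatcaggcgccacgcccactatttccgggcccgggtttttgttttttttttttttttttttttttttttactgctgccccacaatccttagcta
Tsc2-Nthl1, chr17:24632631-24632679: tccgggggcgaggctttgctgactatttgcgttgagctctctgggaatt
Col4a4-Col4a3, chr1:82586850-82586920: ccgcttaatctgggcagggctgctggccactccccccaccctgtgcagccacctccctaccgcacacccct
The stretch between Aimp2 and Pms2 holds matches to the CCAAT box, GC box and ETS motifs, and that between Lrrc46 and Mrpl10 an NRF1 match, whereas no motif of the list lies between Tsc2 and Nthl1, Ddx49 and Cope, or Col4a4 and Col4a3.

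Most head-to-head pairs were open. A summit past a q-value of 0.01 lay in 652 of 742 regions in WT (87.9%, 95% Wilson interval 85.3 to 90.03), in 572 in KO1 (77.1%, 73.9 to 80.0) and in 675 in KO2 (91.0%, 88.7 to 92.8). Among other promoters the same share was 39.5%, 30.7% and 44.8%. The difference was 48.3 percentage points in WT (Newcombe interval 45.7 to 50.6), 46.4 in KO1 (43.2 to 49.4) and 46.2 in KO2 (43.8 to 48.2), with overlapping intervals. These intervals cover counting error over regions only, and the regions are no replicates of a condition. With regions cut to the length used for other promoters, centred on the midpoint of each pair, 87.3%, 76.8% and 89.8% of pairs were open.

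Other promoters with a nearby start on the opposite strand had open shares between these classes or close to those of head-to-head pairs. Of the other promoters, 932 had the start of a long noncoding RNA (lncRNA) on the opposite strand within 1000 bases upstream, and 64.3%, 55.2% and 73.0% of them were open in WT, KO1 and KO2, compared with 38.3%, 29.4% and 43.3% of the promoters without such a start. Pairs of protein-coding genes whose 5′ ends overlap, so that they run across each other, were 311 in number and not part of the 742. They were open in 83.0%, 71.7% and 89.7%, and in KO2 their interval (85.8 to 92.6) holds the 91.0% of head-to-head pairs.

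**Figure D1:**
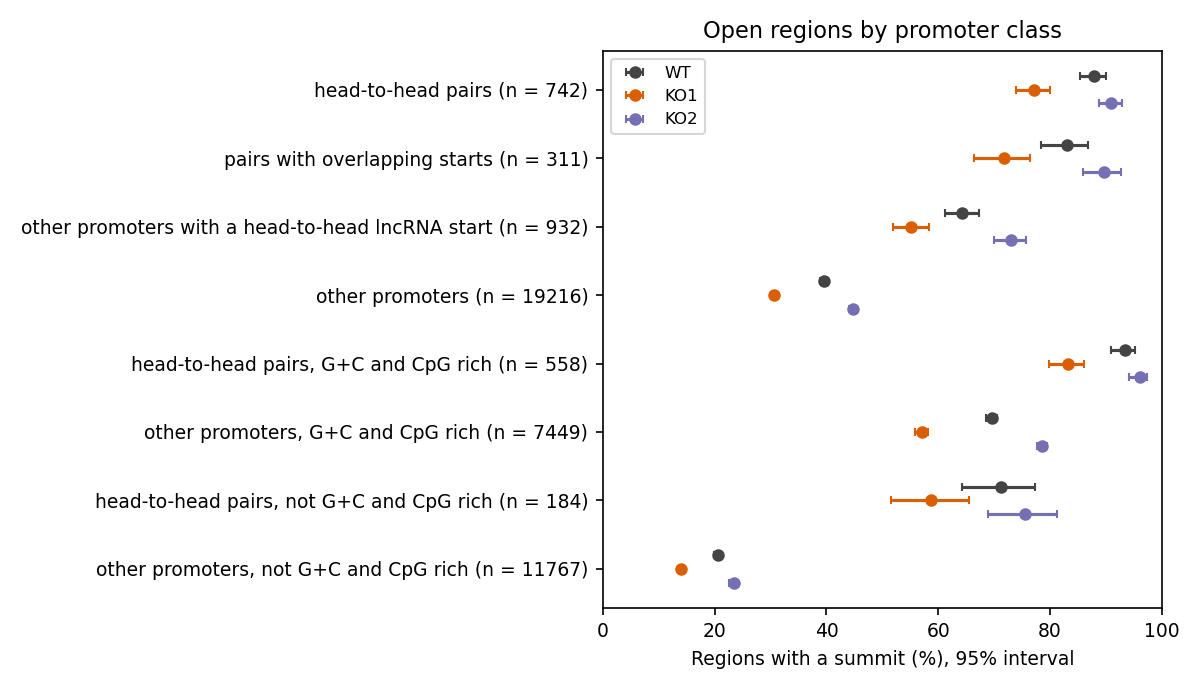
Share of regions with a summit past a q-value of 0.01 (horizontal axis, percent) by promoter class, with 1 point per library and 95% Wilson intervals as bars. Head-to-head pairs lie between 77.1% and 91.0%, other promoters between 30.7% and 44.8%, and within G+C and CpG rich regions the gap narrows but stays in every library.

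Head-to-head regions were richer in G+C and CpG than other promoters, and base composition went with openness in both classes. In windows of that same length the median G+C content was 60.2% in pairs and 55.04% in other promoters, and the median ratio of observed to expected CpG was 0.778 and 0.551. With a G+C content of at least 55% and a CpG ratio of at least 0.6, 558 pairs (75.2%) and 38.8% of other promoters counted as rich. Among rich regions 93.4%, 83.2% and 96.1% of pairs were open in WT, KO1 and KO2, beside 69.6%, 57.04% and 78.6% of other promoters. The difference was then 23.8, 26.1 and 17.5 percentage points. Among the 184 pairs that were not rich the open share was 71.2%, 58.7% and 75.5%, beside 20.5%, 13.96% and 23.4% of other promoters of that kind.

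Motifs of activators of housekeeping genes were matched more often in pairs than in other promoters, and the TATA box less often. Both strands of each window were searched for exact letters: CCGGAAG for ETS factors, GGGCGG for the GC box bound by SP factors, CCAAT for the CCAAT box bound by NF-Y, AAGATGGCG for YY1, GCATGCGC for NRF1, TGACGTCA for the cAMP response element (CRE), ACTACAATT for a ZNF143-associated motif, CACGTG for the E-box, TATAAA for the TATA box, TGAGTCA for AP-1 and CAATTA for an MSX-type homeodomain site. Matches of the ETS and GC box motifs can overlap, as they do between Aimp2 and Pms2. An ETS match lay in 42.3% of pairs and 18.1% of other promoters, and a YY1 match in 9.70% and 3.31%. The shares were 10.5% and 5.00% for NRF1, 6.87% and 3.15% for the CRE, and 2.02% and 0.770% for the ZNF143-associated motif. TATA boxes were less frequent in pairs, with 15.1% against 32.8%, as were AP-1 matches, with 7.28% against 12.1%, and MSX-type sites, with 10.5% against 22.4%. The CCAAT box was found in 69.4% and 69.99%, and the E-box in 21.6% and 16.9%.

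Part of these contrasts went with base composition. Among G+C and CpG rich windows the ETS share was still 45.5% in pairs and 28.0% in other promoters, and the ZNF143-associated motif 2.33% and 0.658%, while NRF1 stood at 9.50% and 8.31%. The GC box, at 89.6% and 60.6% over all windows, stood at 93.6% and 95.5% among rich ones, and the TATA box at 12.2% and 15.2%. MSX-type sites were then found in 8.78% and 11.4%, and AP-1 matches in 6.81% and 7.79%. The CCAAT box, nearly equal over all windows, was found in 68.3% of rich pairs and 61.0% of rich other promoters. For the E-box these shares were 22.2% and 22.5%, for YY1 9.50% and 6.07%, and for the CRE 7.17% and 4.725%. Openness in all 3 libraries was higher in pairs with some motifs and lower in pairs with others. Of the pairs with a GC box 78.3% were open in all 3 libraries, compared with 53.2% of those without, and for the CCAAT box these shares were 81.0% and 63.9%. They were 80.9% and 72.0% for ETS matches, 84.7% and 74.8% for YY1, 80.8% and 75.2% for MSX-type sites, 80.0% and 75.6% for the ZNF143-associated motif, 79.4% and 74.7% for the E-box, and 78.2% and 75.5% for NRF1. Pairs with a match were open less often for the CRE (70.6% and 76.1%), AP-1 (70.4% and 76.2%) and the TATA box (74.1% and 76.0%). A match was present in only 51 pairs for the CRE, 54 for AP-1 and 112 for the TATA box. It was present in 15 for the ZNF143-associated motif, 72 for YY1 and 78 each for NRF1 and MSX-type sites. Gaps of a few percentage points then rest on few pairs, and no direction is read from them. A match is a description of letters in the window and does not show binding.

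**Figure D2:**
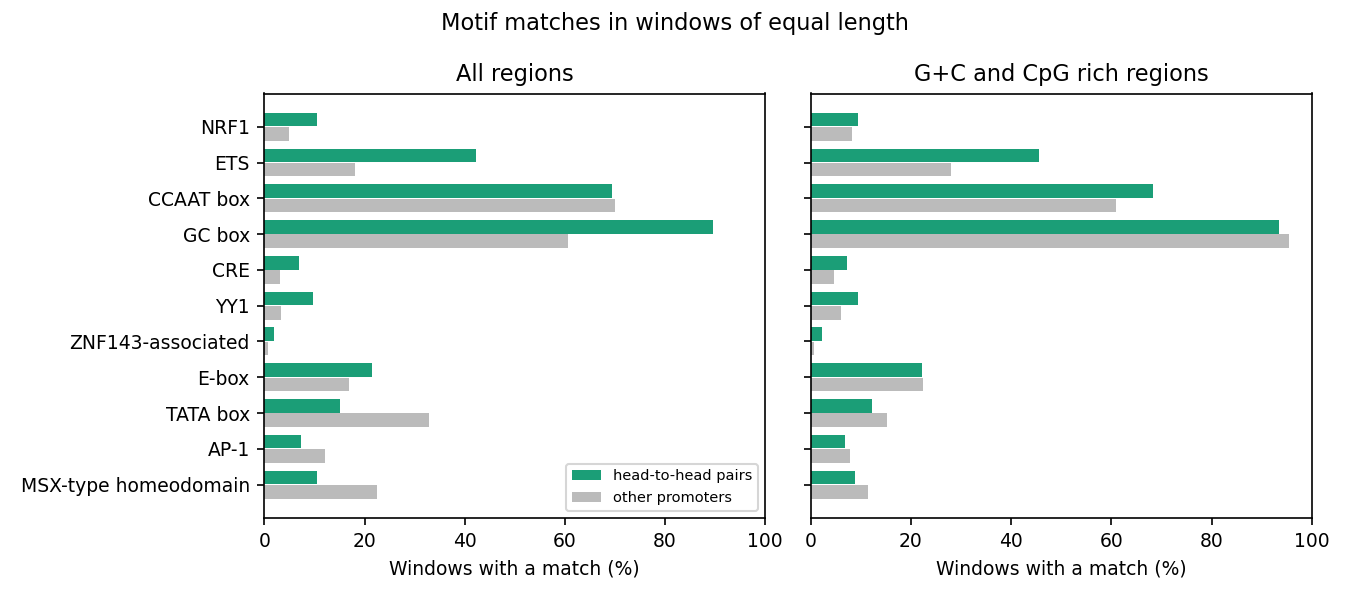
Share of windows with at least 1 match to each motif (horizontal axis, percent) in head-to-head pairs and other promoters, over all windows on the left and G+C and CpG rich windows on the right. The ETS bar is longer in pairs on both sides (42.3% against 18.1%, and 45.5% against 28.0%), while the GC box bars differ mainly on the left.

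Almost every open pair was covered by 1 peak that reached over both starts. This held for 596 of the 652 open pairs in WT (91.4%), 517 of 572 in KO1 (90.4%) and 640 of 675 in KO2 (94.8%). Separate peaks at both starts were found in 1 pair in WT and in 0 pairs of KO1 or KO2. The median peak was 744 bases wide in WT, 861 in KO1 and 1127 in KO2, beside 662, 818 and 1042 at open other promoters. Starts lay a median of 141.5 bases apart, so a peak of the width found at other promoters can reach over both. Coverage of both starts therefore cannot tell a shared peak from a peak that belongs to 1 start. Several summits in 1 region were uncommon, with 2 or more in 15.3%, 2.80% and 10.8% of open pairs and in 10.9%, 3.28% and 7.50% of open other promoters.

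Over all open pairs together, the strongest summit, the one with the highest −log10 p, lay more often in the stretch shared by both genes than beyond it. It fell between the starts, or on one of them, in 412 open pairs in WT (63.2%, 59.4 to 66.8), 326 in KO1 (56.99%, 52.9 to 61.0) and 368 in KO2 (54.5%, 50.8 to 58.2). That stretch makes up 15.6%, 16.2% and 15.5% of these regions by length. The majority did not hold in the largest class, the 274 pairs with starts 1 to 100 bases apart. There the share was 35.0%, 21.5% and 24.6% of open pairs, with 5.56%, 5.71% and 5.54% of the length between the starts. Summits at other promoters also lay close to their start, and upstream of it in 63.7%, 56.0% and 51.6% in WT, KO1 and KO2. An excess over the share of length therefore cannot tell a property of the shared stretch from the usual place of a summit. The remaining summits were found on both sides, with 122, 128 and 159 beyond the start of the minus-strand gene and 118, 118 and 148 beyond that of the plus-strand gene. The median distance from the midpoint of the pair was 51.3, 62.8 and 64.5 bases. To the nearest start the median was 54, 65 and 63 bases, beside 74, 94 and 89 at other promoters.

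The strongest summit did not always keep its place between libraries. Among the 562 pairs open in all 3 libraries, 1 peak covered both starts in all of them in 490 (87.2%), but the strongest summit lay between the starts in all 3 in 256 (45.6%). It fell in the same interval, between the starts or beyond the same one, in all 3 libraries in 362 pairs, and beyond opposite starts in different libraries in 42. From WT to KO1 the summit moved by a median of 45 bases, from WT to KO2 by 38.5, and between the Msx2-KO libraries by 42, so the shift between genotypes was close to that between replicates.

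**Figure D3:**
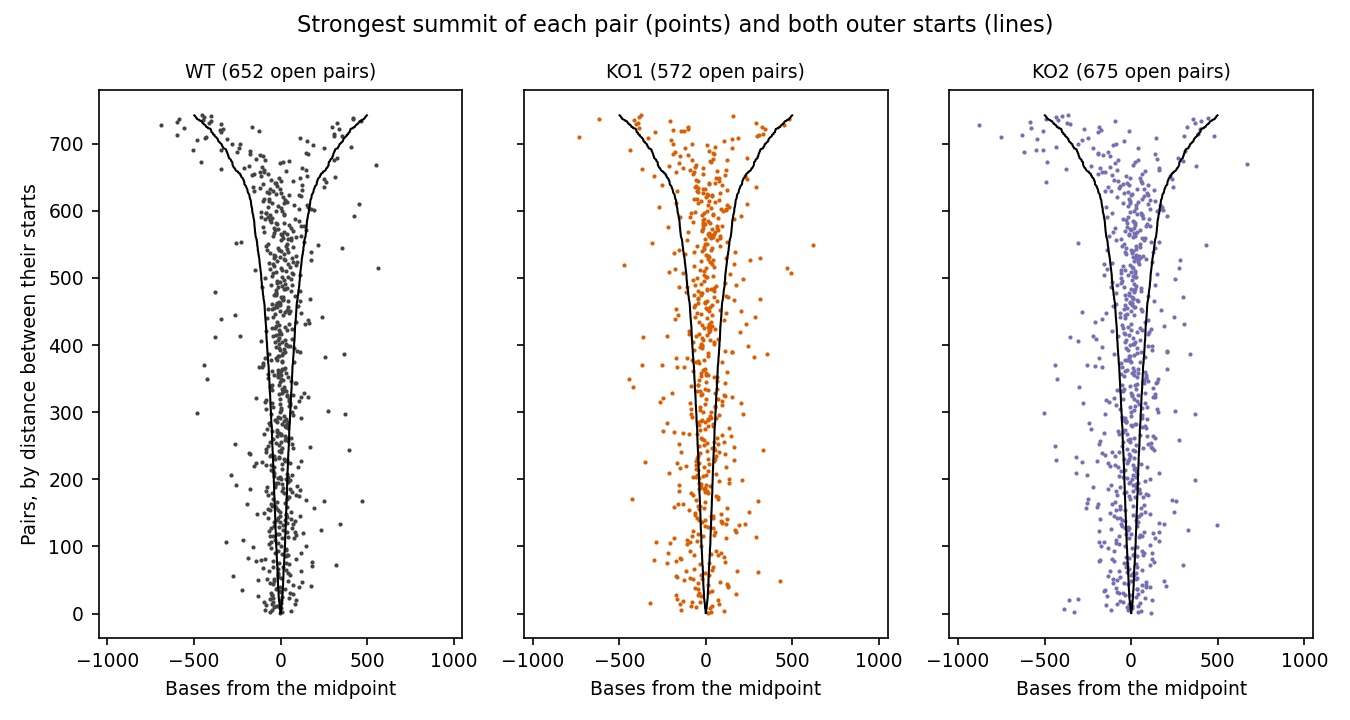
Position of the strongest summit of every open pair (points) relative to the midpoint between both starts (horizontal axis, bases), with pairs ordered by the distance between their starts (vertical axis) and the starts drawn as lines, 1 panel per library. Points gather between the lines in the upper part of each panel, less often where the starts are closest, and 652, 572 and 675 pairs have a point.

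Starts lay 1 to 996 bases apart, with a median of 141.5 and an interquartile range of 75 to 276, and 576 pairs (77.6%) were at most 300 bases apart. Signal was lower where the starts were closest. In the 274 pairs with starts 1 to 100 bases apart the strongest summit held a median of 13.8 tags over background in WT, 23.1 in KO1 and 27.2 in KO2. Tags over background are the tags at the summit divided by the commonest background of that library. At over 300 to 500 bases (82 pairs) the medians were 24.2, 44.1 and 50.6. Over open pairs, Spearman's correlation between distance and tags over background was 0.396 in WT (n = 652), 0.343 in KO1 (n = 572) and 0.374 in KO2 (n = 675). It is given as a description, since pairs share a library and longer regions offer more sequence in which a summit can be found.

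Openness was lowest in the widest class. In WT 86.5% of pairs were open at 1 to 100 bases, 89.95% at over 100 to 200, 92.2% at over 200 to 300, 93.9% at over 300 to 500 and 76.2% at over 500 to 1000. In KO1 the same classes gave 71.2%, 77.4%, 86.4%, 91.5% and 70.2%, and there the intervals of the first and the last class overlap (65.5 to 76.2 and 59.8 to 78.96). In KO2 the first 4 classes lay between 91.5% and 93.9% and the last at 81.0%. The 84 pairs of the last class also had the lowest median CpG ratio, 0.642, beside 0.775 to 0.806 in the other classes.

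In the widest pairs both starts shared a peak less often. At over 500 to 1000 bases 1 peak covered both starts in 48.4% of open pairs in WT, 66.1% in KO1 and 66.2% in KO2, against 98.7%, 96.9% and 99.6% at 1 to 100 bases. Of these wide pairs 26, 5 and 18 had 2 or more summits, and in 21, 4 and 13 of them summits lay on both sides of the midpoint. A summit within 200 bases of each start was found in 12, 0 and 5. The Gart-Son pair, which joins an enzyme of purine synthesis with a splicing cofactor over 554 bases on chromosome 16, had 2 summits in WT and KO2 and 1 in KO1. Across the limit of 1000 bases, the 10 pairs just inside (909 to 996 bases) were open in 9, 7 and 9 cases and the 10 pairs just outside (1004 to 1089 bases) in 8, 5 and 9.

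**Figure D4:**
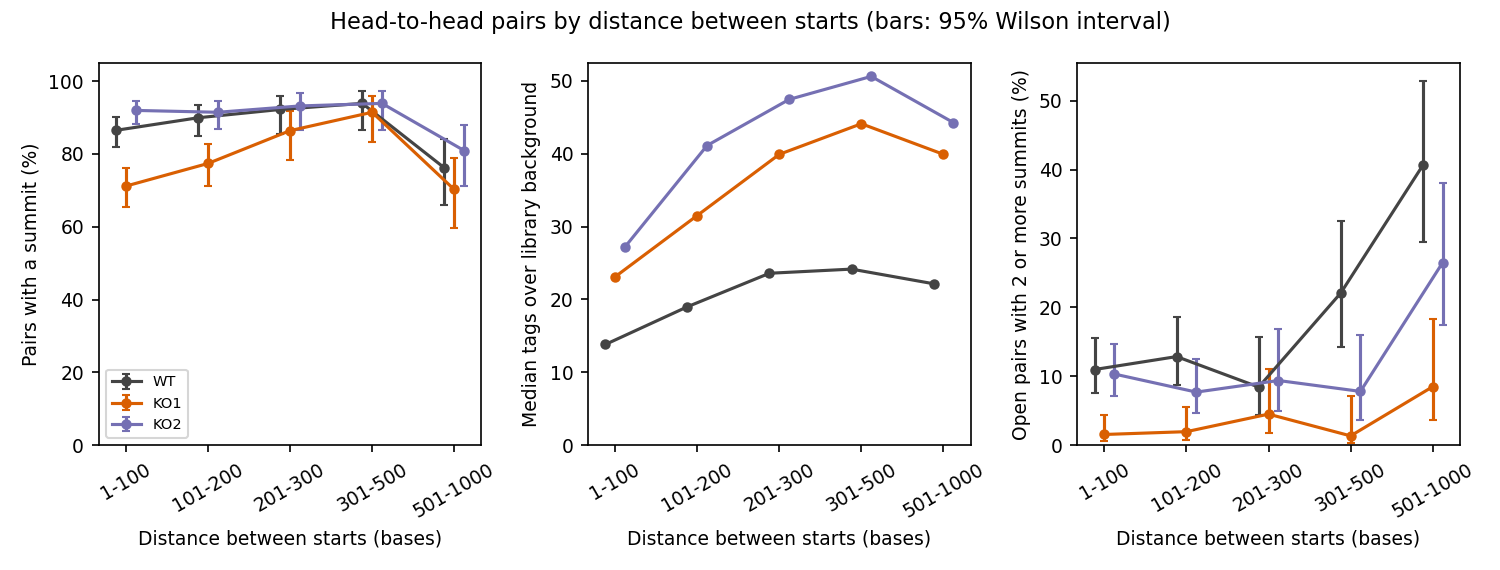
Head-to-head pairs in 5 classes of distance between their starts (horizontal axes, bases): share with a summit (left, percent), median tags over library background at the strongest summit (middle) and share of open pairs with 2 or more summits (right, percent), with 95% Wilson intervals on shares. Median tags rise from 13.8 to 24.2 in WT between the first and the fourth class, and 2 or more summits are found in 40.6% of the widest open pairs of that library.

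Open pairs also carried more signal than other open promoters. The strongest summit held a median of 33, 15 and 29 tags in WT, KO1 and KO2, beside 23, 12 and 21 at other promoters, or 18.99, 31.5 and 36.7 tags over background beside 13.2, 25.2 and 26.6. When only regions open in all 3 libraries were taken, the medians were 20.1, 31.5 and 43.0 in pairs and 16.1, 27.3 and 36.7 in other promoters, 1.25, 1.15 and 1.17 times higher. Split by G+C and CpG content, the gap was smallest among the rich open regions of KO1, with medians of 31.5 in pairs and 29.4 in other promoters.

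By the rule for the highest ranks over all 3 libraries, 5 pairs stood at the top. Aasdhppt-Kbtbd3 on chromosome 9, with starts 366 bases apart, held 85 tags in WT, 79 in KO1 and 120 in KO2. Aasdhppt attaches the phosphopantetheine arm to carrier proteins. Usp5-Cdca3 held 95, 65 and 99 tags, Dcaf6-Mpc2 82, 70 and 100, Ggps1-Arid4b 75, 69 and 103, and Cdca2-Kctd9 86, 58 and 89. Usp5 is a deubiquitinase, Mpc2 a subunit of the mitochondrial pyruvate carrier, Ggps1 the synthase of geranylgeranyl diphosphate, and Cdca2 and Cdca3 are genes of the dividing cell. The summit of Aasdhppt-Kbtbd3 lay 26, 8 and 4 bases from the midpoint, whereas that of Usp5-Cdca3 lay on the Usp5 side in WT and KO1 and between the starts in KO2.

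Few pairs split by genotype. All 3 libraries were open at 562 pairs (75.7%, beside 27.9% of other promoters). KO1 and KO2 but not WT were open at 9 (1.21%, beside 2% of other promoters), and WT alone at 11 (1.48%, beside 2.34%). Both shares of pairs lay below those of other promoters at this threshold, but not under every setting. As a measure of how far single libraries depart without regard to genotype, 78 pairs (10.5%, beside 8.86%) were open in WT and KO2 but not in KO1, the shallowest library, 26 (3.50%, beside 5.98%) in KO2 alone, and 1 (0.135%, beside 0.411%) in WT and KO1. These shares count all regions, and 52.2% of other promoters were open in no library, beside 7.41% of pairs. Among regions open in at least 1 library, the 78 pairs made up 11.35%, beside 18.5% for other promoters. On that base the genotype splits were 1.31% beside 4.19% (KO1 and KO2, not WT) and 1.60% beside 4.89% (WT alone). The list of KO1 held a summit below the threshold at 34 of those 78 pairs, with 3 to 13 tags, and no summit at 44. These counts also moved when the depth was made equal. After thinning every library to the shallowest background, 98 pairs (13.2%, beside 9.17%) were open in KO1 and KO2 and not in WT. That share now lay above the one of other promoters, and 7 pairs (0.943%, beside 1.37%) were open in WT alone. With lists of equal length the shares were 3.64% beside 3.34%, and 2.96% beside 2.99%. Tags over background also differed, with medians at open other promoters of 13.2 in WT, 25.2 in KO1 and 26.6 in KO2. Their part in the split was not tested. Without KO2, 89 pairs (12%, beside 11.2% of other promoters) were open in WT and not in KO1, and without KO1, 35 (4.72%, beside 7.99%) in KO2 and not in WT. Pairs thus lay below or above other promoters depending on the threshold, the depth, the library left out and whether closed regions were counted. No direction is read from these shares.

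The 9 pairs open in KO1 and KO2 only were weak. They held 5 to 8 tags in KO1 and 6 to 21 in KO2, and in 6 of them WT had a summit below the threshold with 5 to 9 tags. Kirrel2-Nphs1 on chromosome 7, a pair known for the slit diaphragm of kidney podocytes, held 7 tags in WT, below the threshold, 8 in KO1 (Poisson interval 3.45 to 15.8) and 19 in KO2 (11.4 to 29.7). S100a1-S100a13, which encode calcium-binding proteins, held 9, again below the threshold, 7 and 21 tags. For Timm9-2700049A03Rik, which includes a chaperone of mitochondrial import, the tags were 7, 7 and 16, for Pex11a-Wdr93, with a peroxisomal membrane protein, 5, 6 and 9, and for Ppp1r3d-Fam217b, with a glycogen-targeting subunit of protein phosphatase 1, 8, 6 and 14. The interval of the lowest count in KO1, 5 tags, reaches down to 1.62. At this depth such counts do not separate the genotypes.

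At the 11 pairs open in WT alone the strongest summit held 10 to 29 tags. Lrrc46-Mrpl10, shown above, held 29 tags in WT (19.4 to 41.7) and no summit was listed for it in KO1 or KO2, and Mrpl10 encodes a protein of the mitochondrial ribosome. Tsc2-Nthl1, with an inhibitor of mTORC1 and a base excision repair glycosylase, held 19 tags in WT, no listed summit in KO1 and 5 tags below the threshold in KO2. Nek8-Tlcd1, with a kinase of the primary cilium, held 29 tags in WT, and KO2 held 8 below the threshold. Txndc9-Eif5b, with a translation initiation factor, held 26 tags in WT at a summit beyond the Eif5b start, while in KO1 and KO2 a peak reached into its region without a summit there. Gatc-Triap1 held 14 tags in WT and 5, below the threshold, in KO2. Over the 11 pairs, the KO2 list held a weaker summit at 5 pairs, and in 6 neither Msx2-KO list held any.

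Among the 562 pairs open everywhere the level followed that of other promoters. The ratio of tags over background to WT had a median of 1.73 in KO1 and 2.20 in KO2, where other promoters gave 1.83 and 2.28, and the ratio of KO2 to KO1 was 1.24 beside 1.21. These ratios hold the difference in background between the libraries, so each pair was read relative to the median of other promoters. On that scale 6 pairs (1.07%, beside 2.87% of other promoters) were at least 2-fold higher in KO1 and KO2 and 19 (3.38%, beside 3.21%) at least 2-fold lower. The first share lay below that of other promoters and the second close to it. Between replicates, 24 pairs (4.27%, beside 3.52% of other promoters) were at least 2-fold higher in KO2 than in KO1. In 3 (0.534%, beside 1.60%) the level was at least 2-fold lower. For single comparisons with WT the counts were 25 higher and 61 lower in KO1, and 13 and 36 in KO2.

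The pairs at the edges of this distribution were chosen after their values were seen and are given as values. Among the 6 higher ones, Fbh1-Ankrd16, with a DNA helicase, held 35 tags in WT, 41 in KO1 and 95 in KO2, and Cct5-Fam173b, with a subunit of the chaperonin of the cytosol, 25, 25 and 57. The remaining ones were Tmem205-Ccdc159, Stxbp4-Cox11, Arsk-Ttc37 and Znrd1-Znrd1as, with 11 to 16 tags in WT. Among the 19 lower ones, Zcchc17-Snrnp40, with a protein of the spliceosome, held 43, 7 and 13 tags, Retreg3-Tubg1, with gamma-tubulin, 45, 6 and 14, and Hspa1a-Hspa1l, a pair of Hsp70 chaperones whose near-identical relatives can share reads, 47, 11 and 20. At Zcchc17-Snrnp40 the Poisson interval was 31.1 to 57.9 tags in WT, 2.81 to 14.4 in KO1 and 6.92 to 22.2 in KO2. Bop1-Hsf1, which holds the start of the master regulator of the heat shock response, was also among the lower ones, with 47, 9 and 23 tags. An MSX-type match was found at 2 of these 25 pairs, Ssna1-Anapc2 and Tepsin-Ndufaf8, both among the 19 lower ones. Over all 742 pairs the share with a match was 10.5% (78 pairs), and so small a count does not depart from it.

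Of 30 textbook head-to-head pairs 15 met the rule in this annotation, and 10 of these were open in all 3 libraries. Hspd1-Hspe1 on chromosome 1, the mitochondrial chaperonin and its co-chaperonin, with starts 108 bases apart, held 45 tags in WT (32.8 to 60.2), 27 in KO1 (17.8 to 39.3) and 69 in KO2 (53.7 to 87.3), with the summit between the starts in every library. Atm-Npat, a kinase of the DNA damage response and an activator of histone genes, held 61, 20 and 58 tags. Mcm4-Prkdc, a subunit of the replicative helicase and the catalytic subunit of DNA-dependent protein kinase, held 46, 32 and 61. Both had their strongest summit between the starts in all 3 libraries.

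Textbook pairs with genes of DNA repair were open in all libraries, except Tsc2-Nthl1. Aimp2-Pms2, a scaffold of tRNA synthetases and a mismatch repair protein, held 33, 10 and 26 tags, all between the starts. Toe1-Mutyh, with the adenine glycosylase of base excision repair, held 44, 14 and 21. Brca1-Nbr1, with a factor of recombination repair and an autophagy receptor, held 34, 15 and 34, but its strongest summit lay on the Nbr1 side in every library, 216, 618 and 432 bases from the midpoint. Rad51ap1-D6Wsu163e held 21, 14 and 23 tags.

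Low counts were found at other textbook pairs. Ddx49-Cope, an RNA helicase and a subunit of the COPI coat with starts 29 bases apart, held 12, 5 and 9 tags. Psmb1-Tbp, a proteasome subunit and the TATA-binding protein, held 21 tags in WT and 27 in KO2, with 5 below the threshold in KO1. Col4a4-Col4a3, the basement membrane collagen chains and the only pair from the list of collagens and laminins, had no listed summit in WT, 3 tags below the threshold in KO1 and 8 past it in KO2.

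Housekeeping lists supplied many of the pairs. Of all protein-coding genes 7.16% were in a head-to-head pair, and the share was 34.2% for core and linker histones (27 of 79), 27.3% for DNA replication and repair (44 of 161), 26.9% for the mitochondrial ribosome (21 of 78) and 21.8% for the respiratory chain (22 genes). It was 17.7% for chaperones, 16.2% for aminoacyl-tRNA synthetases, 14.9% for the proteasome and 11.3% for the cytosolic ribosome. Zinc finger proteins (5.71%), solute carriers (4.75%), collagens and laminins (3.77%) and olfactory and vomeronasal receptors (0.068%) lay below the overall share, and no protocadherin or keratin gene was in a pair. These are descriptions of gene positions and of lists chosen by name.

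Histone pairs were open with 1 constant exception. Of 14 pairs 13, 12 and 13 were open in WT, KO1 and KO2, beside 69.2%, 48.1% and 73.1% of the other promoters on the list. Tags at the open ones ranged from 19 to 47 in WT, 8 to 47 in KO1 and 11 to 76 in KO2. Hist1h2bq-Hist1h2ao, the highest of them in KO1 and KO2, held 46, 47 and 76 tags, and Hist1h2an-Hist1h2bp, the highest in WT, 47, 14 and 45. The pair without any listed summit was Hist1h2ba-Hist1h2aa, which encodes histone variants of the testis, while Hist2h2ac-Hist2h2be on chromosome 3 held 22, 8 and 11. Histone genes exist in near-identical copies, so reads may be split or shared between them.

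Pairs of the respiratory chain and the ribosomes were nearly all open in WT and KO2 and fewer in KO1. All 22 pairs of the respiratory chain were open in WT and KO2 and 20 in KO1, beside 79.7%, 84.8% and 59.5% of the other promoters on this list in the same order. Ndufs1-Eef1b2, a subunit of complex I and a translation elongation factor with starts 3 bases apart, held 37, 23 and 51 tags. Of 20 pairs of the mitochondrial ribosome 19, 14 and 19 were open, beside 80.7%, 49.1% and 89.5% of other promoters, with Mrps18b-Ppp1r10 (66, 26 and 61 tags) and Mrpl32-Psma2 (45, 38 and 59) among the highest. All 9 pairs of the cytosolic ribosome were open in WT and KO2 and 7 in KO1, close to the 91.5%, 73.2% and 91.5% of its other promoters. Their levels were lower, with medians of 15.5, 18.9 and 18.98 tags over background in WT, KO1 and KO2 beside 18.99, 31.5 and 36.7 for all open pairs. This was not particular to them. Pairs of the respiratory chain had medians of 14.1, 21.0 and 27.8, and those of the proteasome 12.1, 25.2 and 30.4. The mitochondrial ribosome gave 18.99, 22.1 and 30.4, whereas histone pairs were not lower, with 18.99, 32.6 and 46.8.

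Genes of genome maintenance and protein folding followed. Of 43 pairs with a gene of DNA replication or repair 40, 30 and 40 were open, and other promoters of this list in 84.6%, 59.8% and 85.5%. Of 12 pairs of chaperones 11, 11 and 11 were open, beside 66.2%, 58.5% and 72.3% of other promoters, with medians of 25.9, 52.5 and 56.9 tags over background, and the exception was Slc30a3-Dnajc5g, where no summit was listed. All 6 pairs of aminoacyl-tRNA synthetases were open in every library, and so were 100%, 70.97% and 93.5% of the other promoters on that list in WT, KO1 and KO2. Of 7 pairs of the proteasome 7, 6 and 7 were open, beside 82.5%, 65% and 82.5%. Of 22 pairs of zinc finger proteins 21, 16 and 21 were open, beside 60.9%, 51.99% and 73.8% of other promoters, and of 17 pairs of solute carriers 15, 12 and 14, beside 34.9%, 23.75% and 43.4%.

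A pair could be open although 1 of its genes is known from another tissue. Nt5c3-Vmn1r4 joins a nucleotidase to a vomeronasal receptor 90 bases away and held 58, 28 and 50 tags, while among the 1470 other promoters of olfactory and vomeronasal receptors 0, 1 and 2 were open. This pair was chosen after its values were seen.

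At 55 pairs (7.41%, beside 52.2% of other promoters) no library had a summit past the threshold, and at 36 of these none was listed at all. They were poorer in CpG, with a median ratio of 0.503 and 15 (27.3%) counted as rich, than the 562 pairs open everywhere, with a ratio of 0.796 and 458 (81.5%) rich. Their median G+C content was 55.5%, beside 60.5%. Several hold genes of other tissues: Pecam1-Milr1, with the junctional protein of endothelial cells, Smyd1-Cd8b1, with a methyltransferase of muscle and a T cell coreceptor, Plcz1-Capza3, with the phospholipase of sperm, and Cabp4-Gpr152, with a calcium-binding protein of photoreceptors, had no listed summit in any library. Peg3-Usp29, an imprinted pair with a CpG ratio of 0.5999, was also without one. Some closed pairs were of ordinary housekeeping genes near the threshold: Timm23-Parg, with a channel of mitochondrial import, held 8, 4 and 5 tags below it, and Eif3i-Tmem234, with a translation initiation factor, 8 in WT and 4 in KO2. These pairs were chosen after their values were seen, and at this depth a weak open state there was not detectable.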

How the data were processed

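The authors deposited a peak list for each of the 3 Omni-ATAC-seq libraries (WT, KO1 and KO2). According to the methods, reads were trimmed (Trimmomatic) and mapped to GRCm38 (BWA-MEM), mitochondrial reads were removed, and MACS2 called peaks in each library without a shifting model and with duplicates kept. The submitters' processing notes also name Partek. The MACS2 version is not given in the sources used here. Duplicates kept in the tags are not independent molecules, and intervals cover counting error only.

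The deposited columns were a fold enrichment (tags plus 1 over local background plus 1), −log10 p, −log10 q and a score, which was not used. Since the lowest deposited −log10 q was 0.0358 in WT, 0 in KO1 and 0.199 in KO2, below the stated cutoff, summits with a −log10 q above 2 were kept. Whole tag numbers and the background were solved from the fold and −log10 p, and were found for 99.9%, 99.8% and 99.95% of summits (WT, KO1, KO2). This step and the counting in regions were tested on simulated data.

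Starts were the outermost ones of basic protein-coding transcripts in GENCODE M21. Of the other starts, 20 inside a pair region were left out. Shares carry 95% Wilson intervals, differences Newcombe intervals and tags Poisson intervals. No test was run. Members, gene lists, motifs and textbook pairs were chosen with earlier results of these data known, and patterns of the gene lists were corrected after over-matches were seen. Pairs were named by rule: the textbook pairs, the 5 with the highest −log10 q in each genotype split, the 5 with the most tags over background, and any with separate peaks at both starts in all 3 libraries, of which there were 0. Other names are said to be chosen after their values were seen or belong to the gene lists. Sequences between starts were printed for the first 8 named pairs 20 to 300 bases apart with at least 20 bases outside both genes, off chromosome 18. The alternatives were another threshold, equal list lengths, thinning, peak overlap, other pair definitions, base composition and leaving out KO1 or KO2. Tools were scipy 1.17.1, pandas 2.3.3 and numpy 2.4.6 under Python 3.11.15, with figures by matplotlib 3.10.9.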

Additional observations from a re-analysis of the deposited data

How the results depend on the processing

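Pairs were open more often than other promoters under every alternative run and in every library. Of 50 values recomputed, 27 stayed within the interval or within 1.5 times the value reported and 23 moved. The difference in openness kept its sign throughout, whereas the genotype split did not keep its balance or its place beside other promoters. The difference moved to 38.6 percentage points in KO1 with a −log10 q of at least 5, to 45.5 in WT and 42.8 in KO2 with every deposited summit, to 44.3 in WT after thinning, to 43.7 in KO2 with any overlap of a peak, and to 23.8, 26.1 and 17.5 in WT, KO1 and KO2 among G+C and CpG rich regions. Pairs open in KO1 and KO2 and not in WT numbered 5 (0.674%, beside 1.42% of other promoters) at a −log10 q of at least 5, 27 (3.64%, beside 3.34%) with lists of equal length and 98 (13.2%, beside 9.17%) after thinning. Those open in WT alone numbered 21 (2.83%, beside 2.79%), 22 (2.96%, beside 2.99%) and 7 (0.943%, beside 1.37%). Leaving out KO1 or KO2 gave 9 to 35 pairs in the first direction, with 35 when KO1 was left out, and 12 to 89 in the second, with 89 when KO2 was left out. The cause was not tested. The share of strongest summits between the starts was 63.8% in KO1 with a −log10 q of at least 5. It was 57.7%, 47.03% and 46.8% for starts at most 300 bases apart and 83.0%, 89.6% and 82.8% for wider pairs. The stretch between the starts makes up 10.6% and 34.1% of these regions, respectively. These shares of length are no expected values, since summits lie near the start at other promoters too.

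No paired analysis was possible because the groups share only replicate number 1 and no test was made. The genotype split is limited by depth, since a summit passed with 5 tags in KO1 and needed at least 9 in WT. It is also limited by the lower tags over background of WT, the single WT library and the batch.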

Other observations

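Chromosome X, outside the rule, held 21 head-to-head pairs. In WT 13 of them were open (61.9%, 95% Wilson interval 40.9 to 79.2), and in KO1 and KO2 14 each (66.7%, 45.4 to 82.8). Of 905 other promoters on this chromosome 20.7%, 22.1% and 32.6% were open. On the autosomes, chromosome 11 held the most pairs, 68, and chromosome 18 the fewest, 12.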
